A study of Homo sapiens with 16 samples.

Results

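The genes described here are 10 that are widely used to read breast cancer stemness and the Notch pathway: the Notch receptors NOTCH1 and NOTCH3, the ligand JAG1, the Notch target HES1, the transcription factors SOX2, SOX9, KLF4 and MYC, the surface marker CD44 and the enzyme ALDH1A3. They were taken by name from the 20037 protein-coding genes of the RefSeq table, and each was given a window, its RefSeq span plus 10 kb on either side. All 10 were found. NF-κB peaks were counted and placed in these windows in T47D, an established estrogen receptor–positive luminal A breast cancer line. The cells carried either lentiviral shRNAs against DAB2IP (knockdown) or a control, both after puromycin selection. The paper describes the control as an empty vector in its methods and as scrambled shRNA for its spheroid assay. The labels say only control. DAB2IP encodes a RasGAP that restrains Ras and NF-κB signaling. Antibodies were against RELA (p65), RELB and NFKB2, and each condition and antibody had 2 libraries, 12 in all. The labels do not say whether the 2 libraries of a group came from separate transductions, so the spread between them may be technical. The peak lists hold no expression values, and the depletion of DAB2IP was not checked here.

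Notch signaling passes from a ligand on one cell, such as JAG1, to a receptor on its neighbor. The receptor is cut, and its intracellular part enters the nucleus and joins the DNA-binding protein RBPJ at targets such as HES1, a transcriptional repressor. In the mammary gland the pathway takes part in cell fate decisions. SOX2, SOX9, KLF4 and MYC are transcription factors tied to stem and progenitor states, CD44 is a hyaluronan receptor, and ALDH1A3 is an aldehyde dehydrogenase that contributes to the enzyme activity used to sort breast cancer stem cells. RELA and RELB carry the transactivation domains of NF-κB, and NFKB2 is the precursor of p52, the usual partner of RELB in the noncanonical pathway.

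The lists held 75078 to 708764 peaks per library on chromosomes 1 to 22, X and Y. Knockdown RELA replicate 1 (105534 peaks) and knockdown RELB replicate 1 (75078 peaks) stood apart as short lists. Every other list held at least 517650 peaks. Gene counts are therefore also given per 100000 listed peaks, and the comparisons of conditions with RELA and RELB are also given without them. A count of 0 is a weak statement in a short list. The 3 peaks that it still allows equal 2.84 per 100000 listed peaks in the short RELA list and 3.996 in the short RELB list, against 0.423 to 0.580 in the others. These limits cover counting error only.

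Peaks were found at all 10 genes, but they were weak, as listed peaks in protein-coding windows were in general. The 10 windows (482.8 kb together) held 665 peaks over the 12 libraries, and 111 of the 120 combinations of gene and library had at least 1. None of the 665 had a q of 0.05 or less (q is the p corrected for the number of tests). This allows a share of up to 0.451% of the peaks. The whole lists held 44 to 203 such peaks per library. Among all protein-coding genes, 0.898% had such a peak in the window in any library. That is a share of genes, so it cannot be set against the share of peaks. All but 1 of the 665 had a q of 1. The exception lay at NOTCH3 in knockdown NFKB2 replicate 2, with a fold enrichment of 4.86, a −log10 p of 6.38 and a −log10 q of 0.54. Fold enrichment (summit signal relative to the local background of the caller) ran from 1.59 to 4.86 with a median of 2.18. The sequencing depth is not given in the lists, but the fold and p of each peak together gave the number of fragments at its summit. The median was 4 fragments and the highest 11, at HES1 in control RELA replicate 1. For peaks in all protein-coding windows the median was 3 or 4 fragments, depending on the library.

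Peak numbers were not above those of other genes. Each gene was ranked in each library among the 200 protein-coding genes nearest to it in window length. The median percentile over the 120 combinations was 38.1, and the medians of single libraries lay between 17.9 and 67.4. The 10 genes together held between 0.619 and 1.21 times the mean number of peaks of their like-length genes, with a median over libraries of 0.798. Both libraries above 1 were the short lists, at 1.21 (RELA) and 1.10 (RELB).

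Per length, the unscaled levels ran from NOTCH3 at the top to NOTCH1. The mean over 12 libraries was 14.9 ± 9.19 peaks per 100 kb of window (SD, n = 12) at NOTCH3, 12.95 ± 6.25 at CD44, 12.8 ± 11.6 at SOX9, 12.4 ± 4.22 at JAG1, 11.6 ± 6.07 at ALDH1A3, 11.2 ± 7.01 at MYC, 11.04 ± 6.20 at KLF4, 8.51 ± 5.51 at SOX2, 8.49 ± 6.93 at HES1 and 6.98 ± 5.22 at NOTCH1. No pair of neighbors in this order was separated by more than 2.52 peaks per 100 kb, and the smallest SD was 4.22. This SD mixes antibodies, conditions and lists of unlike length, and the genes share the libraries. It therefore cannot decide whether neighbors differ, which was not tested. The place of NOTCH3 rested on both control NFKB2 libraries: without them it had 11.8 peaks per 100 kb, below CD44 at 13.2 and JAG1 at 12.3. NOTCH1 was lowest without them (7.12) and without the short lists (7.96).

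**Figure D1:**
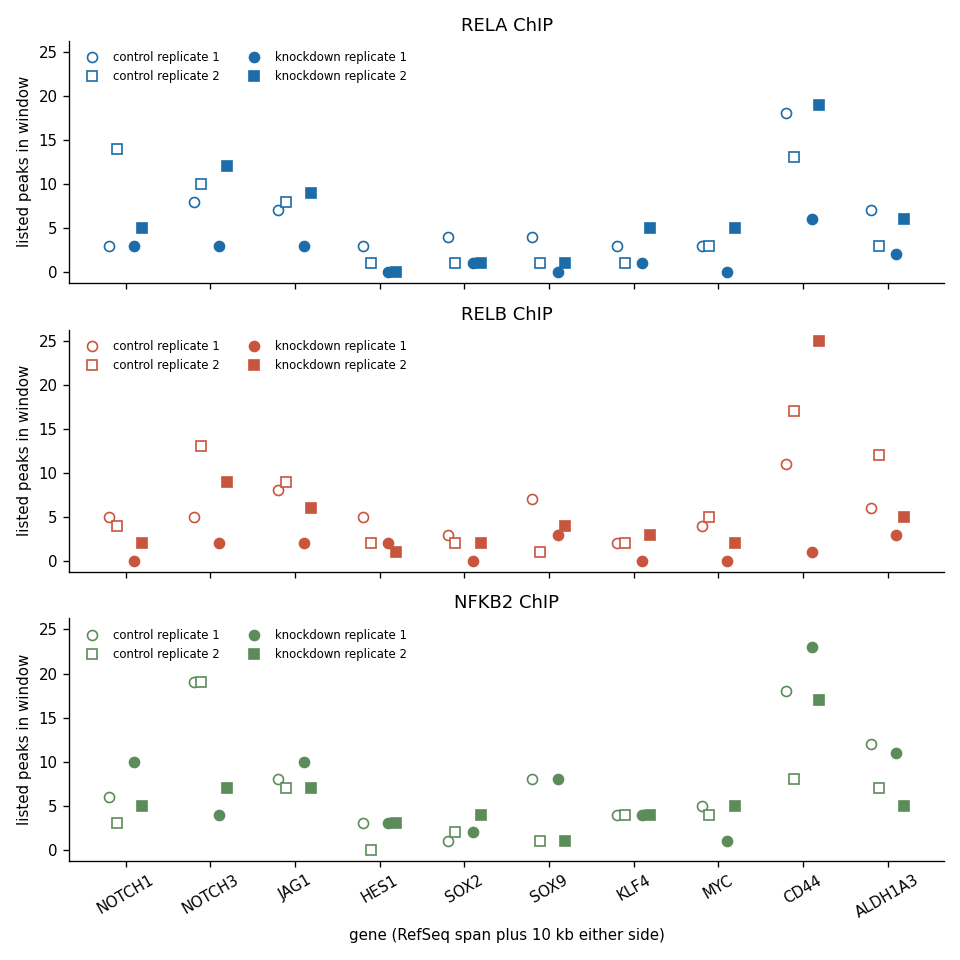
Listed peaks (y axis, number per window) at each of the 10 genes (x axis) for RELA, RELB and NFKB2, with 1 point per library, open for control and filled for knockdown, circles for replicate 1 and squares for replicate 2. NOTCH3 with the NFKB2 antibody has 19 peaks in both control libraries and 4 and 7 in the knockdown libraries, while most other groups overlap.

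NOTCH1, a receptor of the pathway, spans chr9:136494433-136546048 on the minus strand, and its window also reaches SEC16A. It held 3 and 5 RELA peaks in the knockdown libraries (replicates 1 and 2) and 3 and 14 in the control libraries. RELB gave 0 and 2 peaks against 5 and 4, and NFKB2 gave 10 and 5 against 6 and 3. The RELB groups did not overlap, with the control libraries higher. The other groups overlapped, and control RELA replicate 2 was the highest library.

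Against genes of its own length NOTCH1 was low. Its median percentile was 5.5 over 12 libraries, and it lay below the middle in 10 of them. The 2 exceptions were knockdown RELA replicate 1 at 64.5 and control RELA replicate 2 at 68.8. Its neighborhood was low as well. The 100 protein-coding genes nearest to it on chromosome 9 averaged 7.96 peaks per 100 kb, where the like-length genes of the whole genome averaged 15.9, and among these neighbors the median percentile of NOTCH1 was 41.0 (range 19.0 to 88.0). This second comparison was chosen after the first had been seen.

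**Figure D2:**
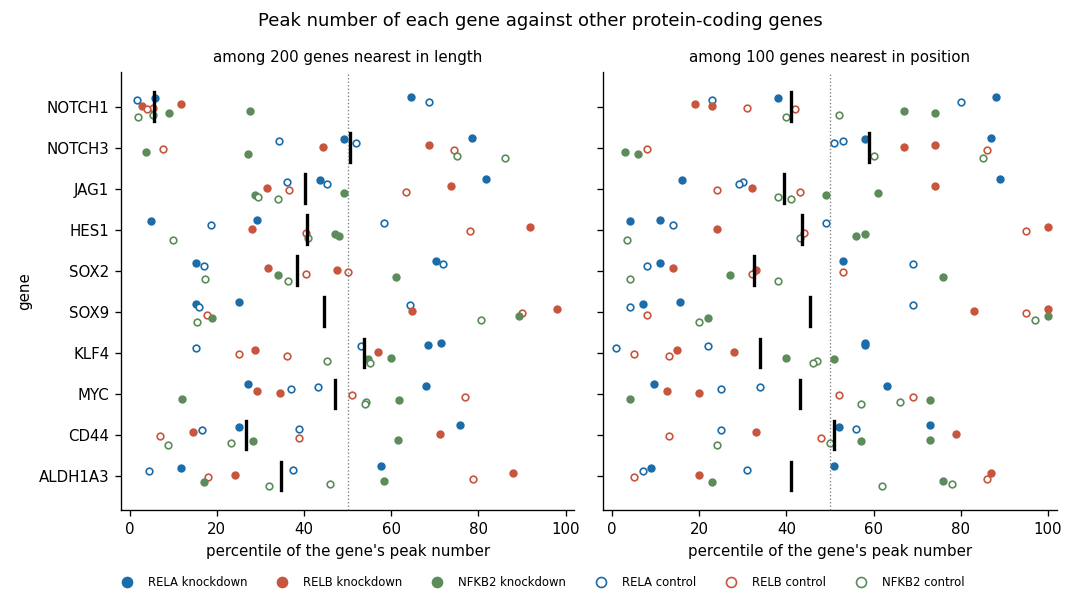
Percentile of each gene's peak number (x axes) among the 200 protein-coding genes nearest in window length (left) and, per kb of window, among the 100 nearest in position on the same chromosome (right), with 1 point per library, filled for knockdown and open for control, and a black bar at the median of 12. The bar of NOTCH1 lies at 5.5 on the left and 41.0 on the right, and no other gene moves as far.

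NOTCH3, another receptor, spans chr19:15159038-15200995 on the minus strand. With the NFKB2 antibody it held 4 and 7 peaks in the knockdown libraries and 19 in each control library. Per 100000 listed peaks these were 0.696 and 1.05 against 2.68 and 2.81, a mean of 0.873 ± 0.250 against 2.75 ± 0.0933 (SD, n = 2 each). The groups did not overlap, and the difference of −1.87 per 100000 had an exact two-sided permutation p of 0.33, the smallest that 2 libraries against 2 can give. Both knockdown libraries were below both control libraries in this measure at 13.5% of protein-coding genes with NFKB2. The other antibodies gave no such separation at NOTCH3. RELA gave 3 and 12 peaks in knockdown and 8 and 10 in control, and RELB gave 2 and 9 against 5 and 13. Within the gene span alone the difference was −0.896 per 100000, and it was 0 among the 20000 smallest p-values of each library. The strongest NOTCH3 peak, described above, was nonetheless in a knockdown NFKB2 library.

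The region of NOTCH3 called in most libraries was also the most recurrent of all 10 genes. It covered chr19:15208712-15209235, with summits at −8155 to −7801 bases from the start, and was called in 7 of 12 libraries, 5 control and 2 knockdown, from all 4 preparations. A preparation here means the 3 antibodies used on 1 condition with 1 replicate number. Its peaks rested on 2 to 4 fragments, with folds of 1.73 to 3.18.

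JAG1, the ligand, spans chr20:10637684-10673999 on the minus strand, and the window also reaches SLX4IP, a protein-coding gene. Its level per length had the smallest SD over libraries of the 10 genes. RELA gave 3 and 9 peaks in knockdown and 7 and 8 in control, RELB 2 and 6 against 8 and 9, and NFKB2 10 and 7 against 8 and 7. The unscaled RELB counts did not overlap, but per 100000 listed peaks the groups overlapped with all 3 antibodies.

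HES1, the classical Notch target, spans chr3:194136148-194138732 on the plus strand. RELA gave no peak in either knockdown library and 3 and 1 in the control libraries. This is −0.381 per 100000 listed peaks, with an exact two-sided permutation p of 0.33, and the share of protein-coding genes with both RELA control libraries above both knockdown libraries was 20.3%. The 3 peaks that 0 in knockdown RELA replicate 2 allows equal 0.436 per 100000, which lies between both control values of 0.569 and 0.193, so a loss was not detectable at this depth. NFKB2 gave 3 and 3 peaks in knockdown and 3 and 0 in control, and RELB 2 and 1 against 5 and 2.

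SOX2, a pluripotency factor, held 1 and 1 RELA peaks in knockdown and 4 and 1 in control, 0 and 2 RELB peaks against 3 and 2, and 2 and 4 NFKB2 peaks against 1 and 2. It spans chr3:181711925-181714436. SOX9, a progenitor factor of the mammary gland, spans chr17:72121020-72126416. RELA gave 0 and 1 peaks there against 4 and 1, RELB 3 and 4 against 7 and 1, and NFKB2 8 and 1 against 8 and 1. The SOX9 counts followed the replicate number rather than the condition with NFKB2. In control replicate 1 all 3 antibodies gave 4 to 8 peaks, and in control replicate 2 all 3 gave 1. The SOX9 region called most often, chr17:72129199-72129478, was called by exactly the 3 libraries of control replicate 1. The methods state that corresponding inputs were sequenced with the ChIP samples. Whether a shared input has a part in this was not tested.

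KLF4, a zinc finger factor of the reprogramming set, spans chr9:107484852-107489769 on the minus strand. RELA gave 1 and 5 peaks in knockdown and 3 and 1 in control, and RELB 0 and 3 against 2 and 2. NFKB2 gave 4 peaks in each of the 4 libraries, so its separation per 100000 (0.696 and 0.600 against 0.564 and 0.592) came from the lengths of the lists. MYC, the growth regulator on chromosome 8, held 0 and 5 RELA peaks in knockdown and 3 and 3 in control. RELB gave 0 and 2 peaks at MYC against 4 and 5, and NFKB2 1 and 5 against 5 and 4. With RELB both MYC groups were separate, as at NOTCH1.

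CD44 spans chr11:35139171-35232402 and is the longest of the 10. It held the most peaks, 176 over the 12 libraries. RELA gave 6 and 19 peaks in knockdown and 18 and 13 in control, RELB 1 and 25 against 11 and 17, and NFKB2 23 and 17 against 18 and 8. Per 100000 listed peaks the NFKB2 values were 4.002 and 2.55 in knockdown and 2.54 and 1.18 in control, so the groups were separated by a gap smaller than the spread within either. ALDH1A3, chr15:100879831-100916626, gave 2 and 6 RELA peaks in knockdown and 7 and 3 in control, 3 and 5 RELB peaks against 6 and 12, and 11 and 5 NFKB2 peaks against 12 and 7. Its groups overlapped with every antibody per 100000 listed peaks. The ALDH1A3 window also reaches LRRK1 and LOC124903575, both protein-coding in the RefSeq table.

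Over the 30 combinations of gene and antibody, 19 overlapped between conditions, 5 were higher in knockdown and 6 higher in control, each with a p of 0.33. With RELA, 1 of 10 genes (KLF4) was higher in knockdown, where the share among all protein-coding genes was 11.8%, and 2 (SOX9 and HES1) were higher in control, beside 20.3%. Without the short list, knockdown RELA replicate 1, the differences at KLF4, SOX9 and HES1 were 0.345, −0.331 and −0.381 per 100000, in place of 0.456, −0.403 and −0.381. With RELB, 0 of 10 were higher in knockdown (12% of all genes) and 3 (SOX2, MYC and NOTCH1) were higher in control (20.6% of all genes). In those 3 the short list, knockdown RELB replicate 1, held 0 peaks, and without it the differences were −0.0976, −0.473 and −0.468 per 100000 in place of −0.279, −0.654 and −0.649. With NFKB2, 4 of 10 (SOX2, KLF4, CD44 and HES1) were higher in knockdown (17.0% of all genes) and NOTCH3 alone was higher in control (13.5% of all genes). SOX2 and HES1 were each separated in opposite directions with 2 antibodies, as were 8.85% of all genes.

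Several of these differences rested on 1 library. Without control RELA replicate 1 the SOX9 difference was −0.121 and that of HES1 −0.193 per 100000. Without control RELA replicate 2 SOX9 was at −0.686 and KLF4 at 0.268. SOX2 with RELB was at −0.460 without knockdown RELB replicate 2. With NFKB2, SOX2 was at 0.129 without knockdown replicate 2, and HES1 at 0.0626 without control replicate 2 and 0.486 without control replicate 1. CD44 with NFKB2 was at 0.687 without knockdown replicate 1, 2.14 without knockdown replicate 2 and 0.736 without control replicate 2, where all 4 libraries gave 1.41. KLF4 with NFKB2 was at 0.0214 without knockdown replicate 1 and 0.118 without knockdown replicate 2. None of them could change sign when 1 library was left out, since they were picked as groups that did not overlap. The kept signs are therefore no check.

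Summed over the 10 genes, the counts scaled to the lists differed between conditions by less than between replicates, with the short lists included. RELA gave 19 and 63 peaks in knockdown and 60 and 55 in control, RELB 13 and 59 against 56 and 67, and NFKB2 76 and 58 against 84 and 55. Per 100000 listed peaks the log2 ratio of the means, knockdown over control, was 0.30 with RELA, 0.30 with RELB and 0.13 with NFKB2. The spread between replicates on the same log2 scale, a pooled SD, was 0.49, 0.39 and 0.41. With RELA and RELB it includes the short lists. For RELA the sums per 100000 were 18.0 and 9.15 in knockdown but 11.4 and 10.6 in control. The RELA and RELB ratios turned to −0.27 and −0.09 without the short lists.

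Within the windows, summits lay inside the gene somewhat less often than its share of the window, at each of the 8 genes whose strand was given. This was not tested. For the 8 genes together, 344 of 589 summits (58.4%) lay within the gene, which makes up 62.8% of these windows. Another 111 lay upstream and 134 downstream. Within 1 kb of the start lay 17 of the 589, 5 of them at ALDH1A3 and none at JAG1. The share expected from length was not computed for this part. NOTCH1 had 53.3% of its summits in the gene against 72.1% of its window, the widest gap of the 8. The narrowest was at ALDH1A3, with 64.6% against 64.8%.

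**Figure D3:**
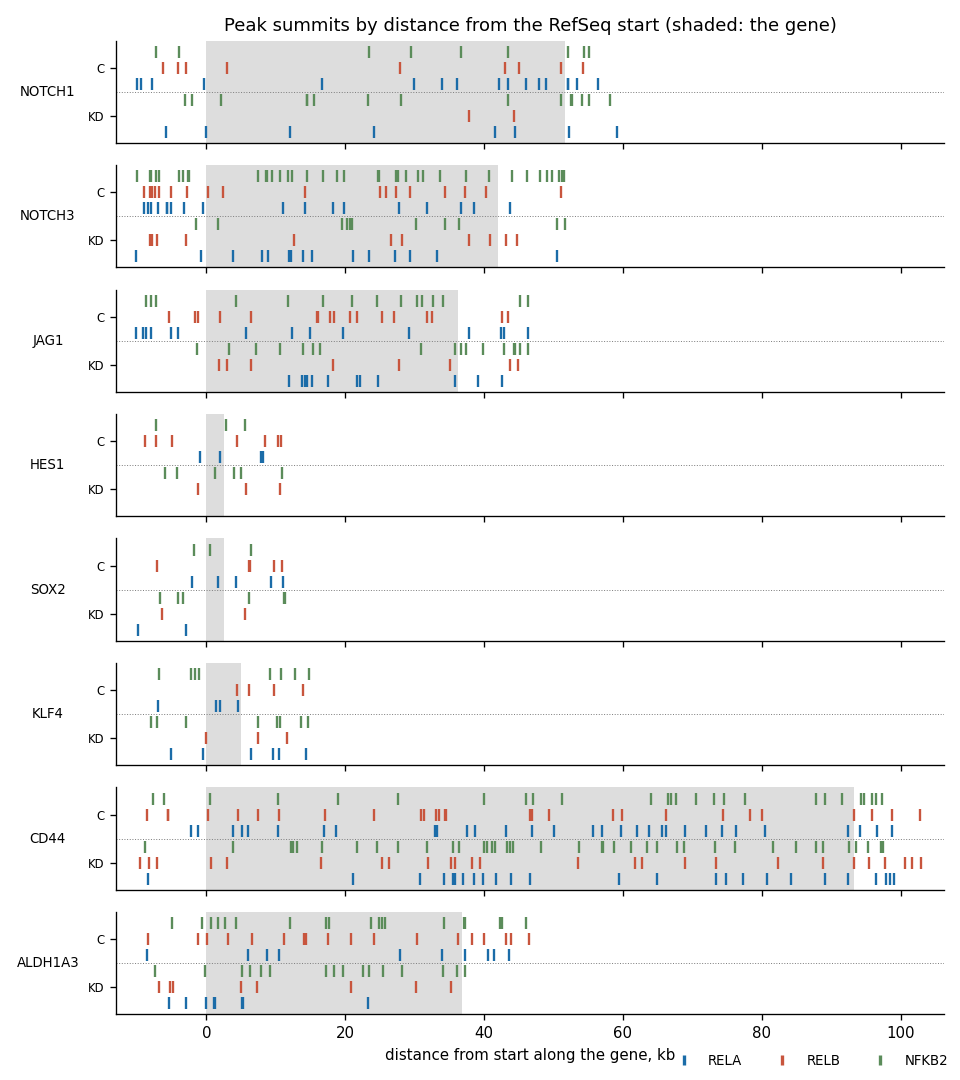
Peak summits at the 8 genes with a known strand, by distance from the RefSeq start along the gene in kb (x axis), in rows for control (C, above the dotted line) and knockdown (KD, below) colored by antibody. Summits are spread over the shaded gene and its flanks, and 17 of 589 lie within 1 kb of the start.

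Peaks reached the promoter, taken as a 300-base window around the start, at 4 of the 8 genes: ALDH1A3 in 3 libraries, NOTCH1 in 2, and KLF4 and CD44 in 1 each. Over all 12 libraries 56.6% of 15843 protein-coding promoters had a peak. Promoter sequences from RefSeq (GRCh38.p14) are shown for the pair with the most libraries and for HES1, whose promoter had no peak but held motif matches. In the ALDH1A3 and NOTCH1 sequences capitals mark the bases under any listed peak, and in HES1 they mark motif matches.
ALDH1A3, chr15:100879581-100879880, plus strand: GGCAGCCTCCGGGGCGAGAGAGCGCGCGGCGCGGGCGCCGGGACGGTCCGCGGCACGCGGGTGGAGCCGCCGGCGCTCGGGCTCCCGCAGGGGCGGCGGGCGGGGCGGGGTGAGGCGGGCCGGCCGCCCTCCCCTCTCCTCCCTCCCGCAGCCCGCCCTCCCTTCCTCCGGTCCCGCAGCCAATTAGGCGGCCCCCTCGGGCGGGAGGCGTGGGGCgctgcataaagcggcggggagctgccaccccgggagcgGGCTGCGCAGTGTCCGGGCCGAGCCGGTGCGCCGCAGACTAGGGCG
NOTCH1, chr9:136545999-136546298, minus strand: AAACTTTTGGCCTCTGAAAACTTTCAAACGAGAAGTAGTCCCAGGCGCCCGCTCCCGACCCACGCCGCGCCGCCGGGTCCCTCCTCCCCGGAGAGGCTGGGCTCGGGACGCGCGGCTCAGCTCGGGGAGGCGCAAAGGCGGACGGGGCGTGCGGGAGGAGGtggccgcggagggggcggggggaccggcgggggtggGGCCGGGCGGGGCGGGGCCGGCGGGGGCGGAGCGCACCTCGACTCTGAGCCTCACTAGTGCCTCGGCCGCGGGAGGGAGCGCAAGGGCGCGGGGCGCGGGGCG
HES1, chr3:194135898-194136197, plus strand: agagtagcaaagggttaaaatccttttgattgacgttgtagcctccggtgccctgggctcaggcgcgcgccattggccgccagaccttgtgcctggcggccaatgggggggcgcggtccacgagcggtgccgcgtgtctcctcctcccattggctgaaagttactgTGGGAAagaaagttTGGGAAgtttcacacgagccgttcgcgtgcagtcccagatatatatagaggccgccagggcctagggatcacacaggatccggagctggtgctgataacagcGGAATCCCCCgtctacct

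The ALDH1A3 peaks were in knockdown RELA replicate 2, control RELB replicate 2 and knockdown NFKB2 replicate 1, and covered 262 of the 300 bases. Those at NOTCH1 were in knockdown RELA replicate 1 and control RELA replicate 2 and covered 264. Both promoters were rich in G and C, at 81.7% for ALDH1A3 and 77.0% for NOTCH1 against a median of 62.7% over all promoters. Both strands were searched for the NF-κB consensus motif and for the RBPJ motif TGGGAA. The NF-κB consensus was found in 6.36% of all promoters and in HES1 alone of the 8, on the minus strand 32 bases after the start. TGGGAA was found in 22.7% of all promoters and at 2 places in HES1, bases 167 to 172 and 181 to 186, and in none of the other 7. A match is only a run of letters, and its absence from a 300-base window says nothing of binding elsewhere.

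Regions shared between replicates were few. For each antibody, peaks from its 4 libraries that overlapped by at least 1 bp were joined into 1 region. For RELA, 3 of 183 merged regions at the 10 genes were knockdown-only, called in both knockdown and neither control library, and 1 was control-only. The shares were 1.64% and 0.546%, and over all protein-coding windows they were 0.538% and 2.29%. For RELB 0 of 182 regions were knockdown-only (0.338% over all windows) and 3 were control-only (2.85%). For NFKB2 3 of 243 were knockdown-only (2.01%) and 2 control-only (2.80%). No region at the 10 genes was called in all 4 libraries of any antibody. Such regions were rare over all protein-coding windows too, at 0.0237% (RELA), 0.0191% (RELB) and 0.248% (NFKB2).

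The RELA knockdown-only regions were chr15:100880869-100881109 and chr15:100884525-100885174, both inside ALDH1A3, and chr20:10659331-10659900 inside JAG1. They rested on 2 to 6 fragments in each peak. The RELA control-only region was chr19:15206571-15207133, upstream of NOTCH3. The NFKB2 control-only regions, chr19:15203442-15203807 and chr19:15208776-15209235, were upstream of NOTCH3 too. The NFKB2 knockdown-only regions were at CD44 (1) and NOTCH1 (2), and the RELB control-only regions at CD44 (2) and JAG1 (1).

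Over all 12 libraries the peaks of the 10 genes formed 475 regions, of which 335 were called in 1 library, 106 in 2, 23 in 3, 9 in 4, 1 in 5 and 1 in 7. The Jaccard index (shared covered bases as a percentage of all covered bases of a pair) had a mean of 1.03% ± 0.764 (SD, 6 pairs) for replicates of a group. It was 2.46% ± 1.80 (12 pairs) for libraries of the same preparation with different antibodies, and 1.495% ± 0.845 (12 pairs) for the same antibody in the other condition. Without the short lists these means were 1.27% ± 0.734 (4 pairs), 3.11% ± 1.53 (9 pairs) and 1.88% ± 0.664 (8 pairs). Pairs that shared neither preparation nor antibody had a mean of 1.17% ± 0.798 (36 pairs), and 1.37% ± 0.735 (24 pairs) without the short lists. Replicates of a group thus shared no more than such pairs did. With all libraries the ranges overlapped, from 0% to 6.37% in the same preparation and from 0% to 2.37% between replicates.

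The local background under the peaks differed between the genes more than their peaks per length did. The background recovered at each peak was divided by the median of the library's peaks in protein-coding windows. The median ratio was 3.60 at HES1, 2.80 at SOX2, 2.03 at NOTCH1, 1.88 at MYC, 1.87 at KLF4, 1.78 at CD44, 1.74 at SOX9, 1.36 at ALDH1A3, 1.22 at JAG1 and 0.903 at NOTCH3. HES1 ranked at percentile 99.9 and SOX2 at 99.6 of the 19264 protein-coding genes with peaks in at least 6 libraries, and NOTCH3 at 34.1. At HES1 the ratio was between 2.74 and 3.89 in the 9 libraries with a peak, and the median was 3.01 in knockdown and 3.68 in control. A higher background means that more fragments are needed for the same p, and HES1 peaks rested on 8 to 11 fragments at their strongest where those of NOTCH3 rested on 4 to 7.

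**Figure D4:**
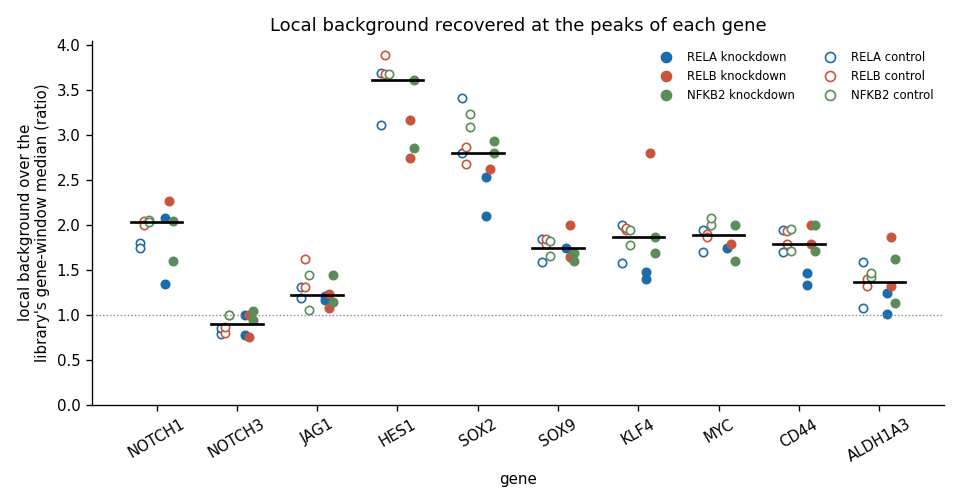
Local background at the peaks of each gene as a ratio to the library's median over protein-coding windows (y axis), with 1 point per library with a peak, filled for knockdown and open for control, and a bar at the median. HES1 (3.60) and SOX2 (2.80) stand highest and NOTCH3 (0.903) lies just under the dotted line at 1.

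Beyond the 10, the lists held 30 other genes of the Notch pathway and 14 other stemness genes. Of the 30 Notch genes, 1, 4 and 3 were higher in knockdown with RELA, RELB and NFKB2, where the shares over all protein-coding genes were 11.8%, 12% and 17.0%. In control 4, 4 and 2 were higher, beside 20.3%, 20.6% and 13.5% of all genes. Of the 14 stemness genes, 0, 2 and 1 were higher in knockdown and 3, 5 and 2 in control. The 5 of 14 with RELB (35.7%) was the share farthest above that of all genes. No gene of either list had a peak with a q of 0.05 or less in any library, beside 0.898% of all protein-coding genes. With so low a share, the absence says little about lists of this length.

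The median difference of the 30 Notch genes, knockdown minus control, was −0.0168 peaks per 100000 listed with RELA, 0.0905 with RELB and 0.0425 with NFKB2. Over all protein-coding genes it was −0.0776, −0.0873 and 0.0304. Without the short lists the RELA and RELB medians of the Notch genes were −0.0664 and −0.102, so the RELB median turned negative, beside −0.0937 and −0.109 over all genes. The 14 stemness genes had medians of −0.184, −0.278 and −0.316, and without the short lists −0.0919 with RELA and −0.0666 with RELB. No test compared the lists with the 10 genes or with other genes.

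Of the 44 genes of the lists that are not among the 10, none was higher in knockdown for at least 2 antibodies (7.08% of all protein-coding genes were), and 3 were higher in control for at least 2 (10.9% of all). PROM1, which encodes the stem cell surface marker CD133, held 2 and 19 RELA peaks in knockdown and 28 and 17 in control, 2 and 22 RELB peaks against 30 and 31, and 32 and 26 NFKB2 peaks against 41 and 29. MAML1, a coactivator that joins RBPJ and the cut Notch receptor, held 2 and 12 RELA peaks against 11 and 10, 2 and 14 RELB peaks against 9 and 11, and 8 and 11 NFKB2 peaks against 12 and 13. BMI1, a Polycomb protein of stem cell self-renewal, held 1 and 5 RELA peaks against 8 and 8, 2 and 12 RELB peaks against 8 and 6, and 6 and 8 NFKB2 peaks against 12 and 11. Per 100000 listed peaks PROM1 was higher in control with RELA and RELB and overlapped with NFKB2. MAML1 and BMI1 were higher in control with RELA and NFKB2 but higher in knockdown with RELB, at 2.66 and 2.53 against 1.61 and 2.096 for MAML1 and 2.66 and 2.17 against 1.44 and 1.14 for BMI1. Leaving out a short list cannot undo a separation of this kind, so it is no check on these genes.

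Among the 45 pairs of the 10 genes, SOX9 and HES1 had the most similar profile of peaks per 100000 over the 12 libraries (Pearson r = 0.95), and r was 0.73 without knockdown RELB replicate 1. The median over the pairs was −0.09. The genes most like CD44 among the 200 of its length were CA8 (0.78), DIXDC1 (0.77) and C1GALT1 (0.76). The libraries share preparations and differ widely in list length, so these values only describe the 12 lists.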

How the data were processed

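ChIP-seq peak lists of 12 libraries were used. Per the submitters' processing notes and the methods, reads were mapped with BWA 0.7.12 to hg38 and the authors had peaks called in each library with MACS2 2.1.0. The deposited fold enrichment is a ratio over local background, the deposited −log10 p-value and −log10 q-value are the caller's own, and the deposited score is derived from the p-value. The listing threshold read from the values was an unadjusted p of 0.05. Input libraries (4) entered only through the calls. Intervals listed more than once were counted once.

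Windows were RefSeq (GRCh38.p14) spans plus 10 kb. A peak counted where it overlapped a window by at least 1 bp. Per-gene tests were exact two-sided permutations of peaks per 100000 listed (2 against 2). Fragments at a summit and local background were solved from fold and p under the caller's pseudocount and Poisson formulas. In both libraries with short lists this needed a scaling of the IP (0.910 and 0.982). Counting, merging and fragment recovery were tested on simulated data. Scripts ran in Python 3.11.15 (pandas 2.3.3, numpy 2.4.6, matplotlib 3.10.9 for plots, scipy 1.17.1).

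The members, lists and tests were chosen with earlier results of these data known. All 10 members were named by rule. Of the other listed genes, those were named whose 2 libraries of a condition exceeded both of the other for at least 2 antibodies, at most 4 per direction. Promoters and strand were at hand for 8 members, and MYC and SOX9 were not analysed for either. Alternatives covered the window, p, q and length filters, scaling, left-out libraries and a replicate block.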

Additional observations from a re-analysis of the deposited data

Results flagged for a closer look

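SOX2 and HES1 were separated between conditions in opposite directions with different antibodies, as were 8.85% of all protein-coding genes. At SOX2 both knockdown libraries were above both control libraries with NFKB2 and below them with RELB, and the differences, knockdown minus control, were 0.534 peaks per 100000 listed apart. At HES1 they were above with NFKB2 and below with RELA, 0.655 per 100000 apart. Each separation had an exact two-sided permutation p of 0.33, the smallest possible, and the difference between antibodies was not tested. All of these counts were 4 peaks or fewer. A short list with 0 peaks was included on the RELB side at SOX2 and on the RELA side at HES1. Without scaling, the groups overlapped at SOX2 with both antibodies and at HES1 with NFKB2. The SOX2 NFKB2 difference was −0.0705 per 100000 in the gene span alone.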

How the results depend on the processing

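None of the 3 sums over the 10 genes kept its direction under every alternative. With peak numbers not scaled to the lists, the log2 ratio of knockdown over control was −0.49 (RELA), −0.77 (RELB) and −0.0529 (NFKB2). Among the 20000 smallest p-values of each library, which left 17 member peaks, it was 1.00 for RELB and 0.74 for NFKB2. Without CD44 (chosen after seeing the data) NFKB2 gave −0.0822, and without both short lists (likewise) RELA gave −0.27 and RELB −0.0950. Leaving out 1 library at a time gave −0.27 to 0.71 (RELA), −0.0950 to 0.60 (RELB) and −0.20 to 0.43 (NFKB2). The negative values came without knockdown RELA replicate 1, knockdown RELB replicate 1, knockdown NFKB2 replicate 1 (−0.20) and control NFKB2 replicate 2 (−0.11). With a replicate block the ratios were 0.22, 0.26 and 0.13. The labels do not say whether a number marks a shared culture or day. Deviations of same-numbered libraries correlated over the 10 genes at −0.24, 0.31 and 0.83 with RELA, RELB and NFKB2. With 2 pairs the smallest sign-flip p is 0.5. No value could be had at a q of 0.05 or less. The cause of the other changes was not tested.

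The median like-length percentile stayed between 32.9 and 43.3 over its alternatives. With summits within 100 bp the NFKB2 knockdown-only regions numbered 1 and the control-only 0, and the RELA knockdown-only 0. With a −log10 p of at least 2 these 3 counts were 0, and RELB control-only regions numbered 1. Among single genes, the SOX2 NFKB2 difference was −0.0705 per 100000 in the gene span alone and with 1 kb either side, KLF4 RELA was −0.284 and −0.212, and KLF4 NFKB2 was −0.0705 with 1 kb either side, −0.363 at a −log10 p of at least 2 and −5.00 among the 20000 smallest p-values. Leaving out 1 library, NOTCH3 NFKB2 ranged from −2.05 to −1.70, where its sign could not change because the groups did not overlap. It was negative under every alternative that gave a value except the 20000 smallest p-values, where it was 0.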

Other observations

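The flanks of several genes held uneven numbers of summits in the 2 conditions, a pattern picked out after the values were seen. Upstream of NOTCH3, within 10 kb, the control libraries held 5 and 4 RELA, 4 and 3 RELB and 4 and 5 NFKB2 summits, and the knockdown libraries 0 and 2, 1 and 3, and 1 and 0. Per 100000 listed peaks the mean was 0.719 over the control libraries, 0.390 over the 6 knockdown libraries and 0.252 over the 4 without a short list. Upstream of JAG1 there were 12 summits in control and 1 in knockdown, with means of 0.359 in control, 0.0250 in knockdown and 0.0375 without the short lists. Downstream of ALDH1A3 there were 14 and 1, with means of 0.403, 0.0250 and 0.0375. Other flanks went the other way. Downstream of JAG1 there were 8 summits in control and 12 in knockdown, upstream of ALDH1A3 5 and 8, upstream of SOX2 3 and 6, and downstream of KLF4 7 and 11. The windows of JAG1 and ALDH1A3 also reach other protein-coding genes. No share over all genes was computed for the flanks, and no test was made.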
